A study of Homo sapiens with 18 samples.

Results

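The aryl hydrocarbon receptor (AHR) pathway was followed through OFD1 knockdown in 3 human pancreatic cancer cell lines by 7 genes of the 26668 in the expression table. These were the receptor AHR, its partner ARNT, the target genes CYP1B1, CYP1A1, TIPARP and ALDH3A1, and the repressor AHRR, all taken by symbol. The set was chosen by the PANC-1 values of CYP1B1, whose increase was among the clearest in that line, so every knockdown value from PANC-1 below is a description without a test. Tests were made only in MIA PaCa-2 and PaTu 8988T. The stated choice did not use these lines, but earlier results of these data were known when the genes were chosen.

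The study sequenced RNA from PANC-1, MIA PaCa-2 and PaTu 8988T, which are established lines derived from human pancreatic carcinomas, with 3 control (shControl) and 3 OFD1-knockdown (shOFD1) libraries per line, 18 in all. OFD1 encodes a protein of centrioles and the base of primary cilia. The shOFD1 cells carried a tetracycline-inducible short hairpin RNA against OFD1 and were harvested after 72 h with doxycycline. The control libraries are titled shControl, their genotype field reads WT and their treatment field says that none was given, while the study's methods describe DMSO on cells with the same inducible hairpin. The sources therefore leave unsettled whether the controls carried the hairpin, and an effect of doxycycline itself cannot be told apart from that of the hairpin. For PaTu 8988T, 2 of the 3 replicate numbers have a source name that differs from the title in the number of the line, and the titles were followed.

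The libraries held 32486464 to 39797536 counted reads. OFD1 itself was lower in every shOFD1 library than in every control library of its line, with mean levels of 5.43 and 2.55 FPKM (fragments per kilobase, scaled to depth) in PANC-1, 2.85 and 1.82 FPKM in MIA PaCa-2, and 2.06 and 0.911 FPKM in PaTu 8988T. The keratins KRT8 and KRT18, markers of epithelial cells, were high in all 3 lines, at group means of 319 to 947 FPKM. KRT19 was near 0 in PaTu 8988T (at most 0.00647 FPKM as a group mean) and the epithelial adhesion genes EPCAM and CDH1 were near 0 in MIA PaCa-2 (at most 0.033 FPKM). Of the acinar markers, CPA1 and AMY2A were at 0 throughout, and PRSS1 was at 0 in MIA PaCa-2 and PaTu 8988T but had 1 to 10 reads in PANC-1 controls and 31 to 52 in PANC-1 shOFD1 libraries (0.0947 and 0.823 FPKM). CD3E of T cells was at 0 in every library. PTPRC, a pan-leukocyte marker, was at 3.51 FPKM in MIA PaCa-2 controls and 6.0 in its shOFD1 libraries, and the lysosomal macrophage marker CD68 had 52.5 and 69.3 FPKM there, 34.6 and 18.1 in PANC-1 and 13.8 and 10.8 in PaTu 8988T. Several markers moved with knockdown alongside the genes below. In MIA PaCa-2, KRT8 fell (947 to 554 FPKM, limma adjusted p = 0.00707) while the mesenchymal gene VIM (3512 to 4900 FPKM, adjusted p = 0.000388) and the collagen gene COL1A2 (162 to 205 FPKM, limma adjusted p = 0.0183) rose. Another ductal or epithelial marker, SOX9, rose there (log2 fold change 0.35, limma adjusted p = 0.0104). Of the 4 such markers tested in this line, 1 was called higher and 1 lower. In PaTu 8988T, VIM fell (783 to 591 FPKM, limma adjusted p = 4.29e-05). SOX9, a ductal transcription factor, had 2.29 FPKM in controls and 0.84 with knockdown there. It passed the filter of 1 FPKM on the mean only through its control libraries, so its call is no support for a fall. In PANC-1, VIM had 1401 FPKM in controls and 793 with knockdown, and KRT19 had 178 and 89.2 FPKM. KRT8, EPCAM and CDH1 went the other way there (log2 fold changes 0.26, 0.49 and 0.32), and the median of the 7 ductal or epithelial markers was 0.18. The part of these markers in the results was not tested. MIA PaCa-2 control replicate 2 stood apart from the other controls of its line (4350 genes were called in MIA PaCa-2 with it and 8098 without it), and the values of ARNT, CYP1B1, TIPARP and the gene lists without it are given with those results. Whether replicates are separate cultures is not stated in the labels, so the p-values measure the spread between these libraries, and in bulk RNA fewer cells of a type and less RNA per cell cannot be told apart.

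AHR is a transcription factor of the bHLH-PAS family that waits in the cytoplasm, bound to HSP90 and other chaperones, until a ligand such as a dioxin, a polycyclic hydrocarbon or a tryptophan metabolite enters the cell. It then moves to the nucleus, pairs with ARNT and binds xenobiotic response elements, short sites built around the letters GCGTG, near genes for oxidative enzymes such as CYP1A1 and CYP1B1. AHRR and TIPARP are themselves induced by the pathway and restrain it, AHRR by competing for ARNT and the elements, TIPARP by ADP-ribosylating AHR.

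The genes lie on 7 chromosomes of the human genome (RefSeq, GRCh38.p14), with AHR at chr7:17298652-17346147, ARNT at chr1:150809713-150876599, AHRR at chr5:321714-438285, CYP1B1 at chr2:38067509-38076151, CYP1A1 at chr15:74719542-74725528, TIPARP at chr3:156674590-156706770 and ALDH3A1 at chr17:19737984-19748298. RefSeq promoter windows of 300 bases were matched for 5 of the 7 genes and searched on both strands for GCGTG and for the longer TNGCGTG, which contains it. GCGTG was present in 36.5% of all 35116 windows and TNGCGTG in 5.51%. The CYP1A1, TIPARP and AHRR windows are shown because these targets are known to be induced through such elements. The 250 bases before the annotated start are printed 5′ to 3′ on the strand of the gene (GRCh38.p14; CYP1A1 chr15:74725529-74725778 on the minus strand, TIPARP chr3:156674340-156674589 and AHRR chr5:321464-321713 on the plus strand), and capitals mark the motif, which reads CACGC where it lies on the other strand.
CYP1A1: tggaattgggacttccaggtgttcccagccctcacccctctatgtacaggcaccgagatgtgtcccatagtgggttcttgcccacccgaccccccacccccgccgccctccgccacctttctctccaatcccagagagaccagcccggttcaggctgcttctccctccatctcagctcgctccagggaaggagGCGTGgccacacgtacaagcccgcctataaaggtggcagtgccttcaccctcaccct
TIPARP: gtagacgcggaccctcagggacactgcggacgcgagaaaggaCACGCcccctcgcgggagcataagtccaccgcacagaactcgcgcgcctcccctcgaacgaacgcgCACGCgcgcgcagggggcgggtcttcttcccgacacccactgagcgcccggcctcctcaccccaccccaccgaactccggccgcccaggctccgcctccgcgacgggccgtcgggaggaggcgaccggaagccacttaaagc
AHRR: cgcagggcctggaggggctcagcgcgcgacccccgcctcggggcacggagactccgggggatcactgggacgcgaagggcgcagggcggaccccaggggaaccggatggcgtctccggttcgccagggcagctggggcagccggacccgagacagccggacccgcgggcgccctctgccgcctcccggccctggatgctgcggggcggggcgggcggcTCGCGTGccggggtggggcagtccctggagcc
CYP1A1 had 1 GCGTG, its first base at position -57 from the start. TIPARP had 2, at positions -208 and -142, in the first of its 3 windows and none in the others. The first AHRR window held the longer form, TNGCGTG at position -32, and its second window had 2 copies of GCGTG. AHR had 1 copy just inside the transcript and ARNT had none. These matches describe letters only and were not tested for binding.

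AHR, the receptor, was abundant in PANC-1, low in PaTu 8988T and nearly absent in MIA PaCa-2. In PANC-1 the control libraries had 27.1, 25.7 and 25.7 FPKM and the shOFD1 libraries 55.1, 55.0 and 55.6 FPKM. The shOFD1 libraries all lay above the controls, as they did for 41.7% of the genes tested in PANC-1. The mean of AHR was 2.11-fold higher (26.2 ± 0.801 against 55.2 ± 0.356 FPKM, SD, n = 3). Its log2 fold change was 1.08 on the log2(FPKM + 0.1) scale used throughout, where it ranked 153 of 10902 genes from the highest. In PaTu 8988T the controls had 2.22, 2.40 and 2.34 FPKM and the shOFD1 libraries 2.61, 2.10 and 2.23 FPKM. These groups overlapped and their means were alike (2.32 ± 0.0941 and 2.32 ± 0.262 FPKM, log2 fold change -0.01, SE 0.0957, adjusted p = 0.961 in limma with Benjamini-Hochberg adjustment). MIA PaCa-2 had almost no AHR transcript. It was listed at 0 in 5 of the 6 libraries, and shOFD1 replicate 2 held 0.00843 FPKM, which is 2 reads, while a floor of 3 reads corresponds to 0.0126 FPKM in the shallowest library of this line. For a gene whose length is the same in the 3 lines, as for AHR, levels can be set side by side. Control PANC-1 cells had 11.3-fold more AHR than control PaTu 8988T cells and at least 2069-fold more than MIA PaCa-2 at the floor of 3 reads per library. PaTu 8988T controls in turn were at least 183-fold above that floor, so the order was PANC-1, PaTu 8988T, MIA PaCa-2, with no overlap between neighbours.

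**Figure D1:**
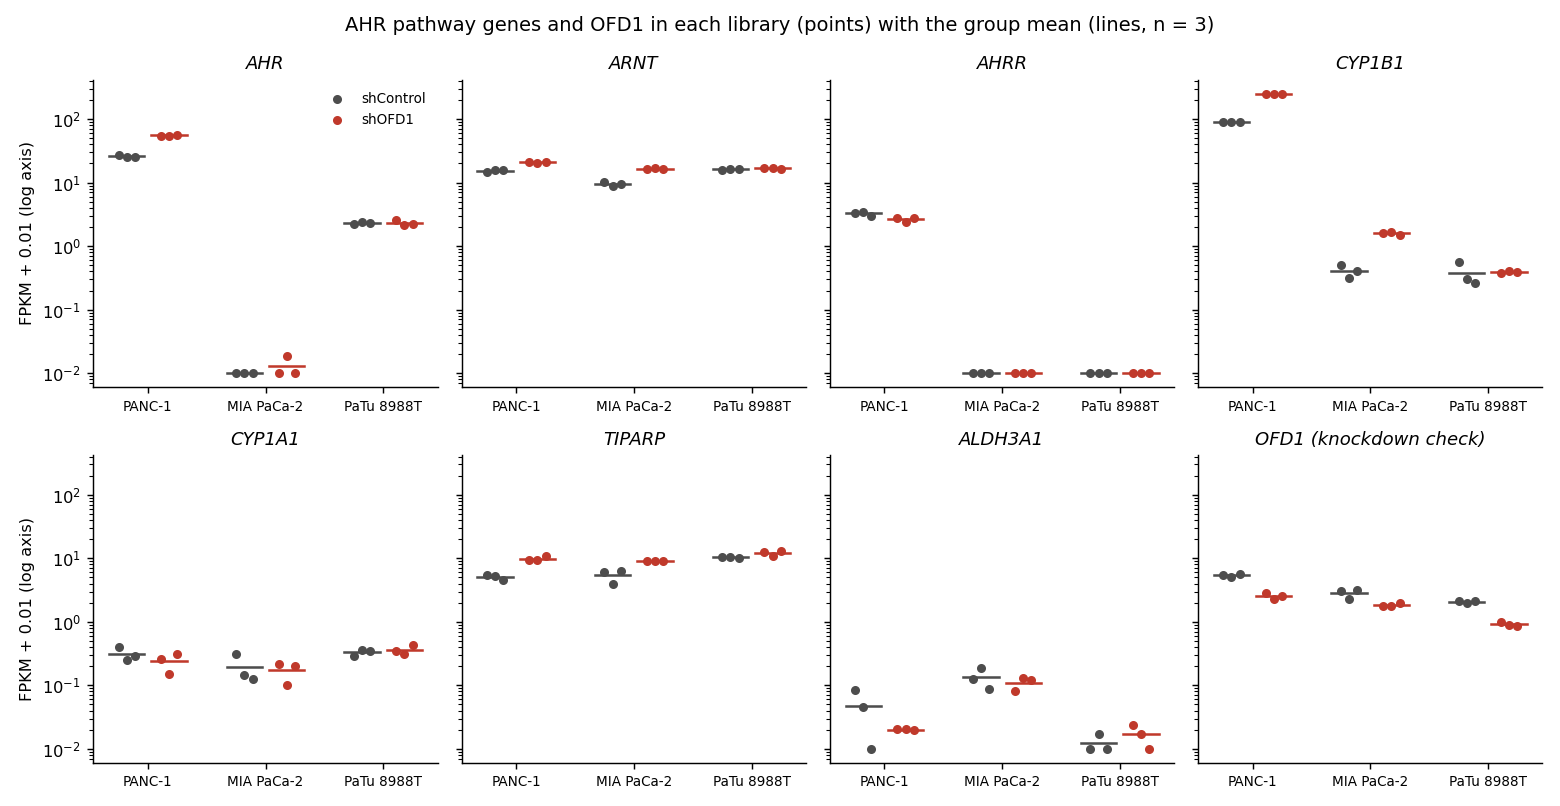
Level of the 7 AHR pathway genes and of OFD1 in each library, plotted as FPKM + 0.01 on a log axis, with controls (shControl) in grey, knockdown (shOFD1) in red and the group mean as a line (n = 3). AHR is near 55 FPKM in PANC-1 shOFD1 libraries and at 0 in 5 of 6 MIA PaCa-2 libraries, ARNT lies between 8.67 and 21.1 FPKM in all libraries, and points at 0.01 are libraries listed at 0.

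ARNT, the nuclear partner that AHR shares with the hypoxia factors, was present in all lines and moved with knockdown in MIA PaCa-2. There the controls had 10.1, 8.67 and 9.60 FPKM and the shOFD1 libraries 16.4, 16.7 and 16.6 FPKM. The groups did not overlap, as was true upward of 28% of the genes tested in that line, and ARNT rose 1.75-fold on the mean (9.46 ± 0.723 to 16.6 ± 0.176 FPKM, SD, n = 3, log2 fold change 0.81, SE 0.0895, limma adjusted p = 0.000994). Without control replicate 2 the log2 fold change was 0.74 (limma adjusted p = 6.66e-07). In PaTu 8988T the controls had 15.8, 16.6 and 16.4 FPKM and the shOFD1 libraries 16.9, 16.8 and 16.5 FPKM, which overlapped (log2 fold change 0.04, SE 0.0423, limma adjusted p = 0.511). The difference between these lines was itself past the threshold, with the log2 fold change higher by 0.77 in MIA PaCa-2 (SE 0.0885, limma interaction term, adjusted p = 4.85e-05), against a background in which 19.2% of 9647 genes had a higher change in MIA PaCa-2 and 26.5% a lower one. The control levels of the lines also differed, since ARNT in MIA PaCa-2 controls was below PaTu 8988T controls (1.72-fold) with no overlap, while the shOFD1 libraries of the lines overlapped. In PANC-1, where the counted ARNT model was shorter (4799 against 4995 bases) and levels are therefore not set beside the other lines, the controls had 14.5, 15.5 and 15.9 FPKM and the shOFD1 libraries 21.1, 20.7 and 21.0 FPKM, all above the controls (log2 fold change 0.45). Of the genes tested in PANC-1, 41.7% lay wholly above their controls.

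CYP1B1, a cytochrome P450 that oxidises polycyclic hydrocarbons and estradiol and is a common readout of AHR activity, was by far most abundant in PANC-1. The PANC-1 controls had 90.1, 89.1 and 91.0 FPKM and the shOFD1 libraries 249, 249 and 251 FPKM, drawn from 16335 to 17194 and 42214 to 44933 reads. Replicates were tight and the groups far apart, in a line where 41.7% of the genes tested lay wholly above their controls. The mean was 2.77-fold higher (90.1 ± 0.941 against 250 ± 1.14 FPKM, SD, n = 3), and the log2 fold change of 1.47 ranked 51 of 10902 genes from the highest, which is how the gene came to be chosen.

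In MIA PaCa-2, CYP1B1 was rare but also higher with knockdown. The controls had 0.499, 0.303 and 0.402 FPKM (63 to 102 reads) and the shOFD1 libraries 1.61, 1.68 and 1.46 FPKM (292 to 334 reads). The lowest shOFD1 library was well above the highest control, in a line where 28% of the genes tested lay wholly above their controls. The mean of CYP1B1 was 3.95-fold higher (0.402 ± 0.098 against 1.59 ± 0.115 FPKM, SD, n = 3). Its mean over the 6 libraries was 0.994 FPKM, just under the filter of 1 FPKM, so that the test across genes did not include it. An exact two-sided permutation test of 3 libraries against 3 gave p = 0.1, the smallest it can give. In a fit without the filter CYP1B1 passed the threshold (log2 fold change 1.77, SE 0.199, limma adjusted p = 0.00299), where 11.2% of 20604 genes were called higher and 3.75% higher by at least 2-fold. A fit to the recovered reads, chosen after seeing the data, gave a 4.01-fold change (log2 2.0, SE 0.203, voom and limma adjusted p = 0.000524, with 6.67% of 16564 genes called at least 2-fold higher). Without control replicate 2 the log2 fold change of CYP1B1 was 1.62. In that fit it passed the filter only through the shOFD1 libraries, where it is high, so no p-value is given. In this line AHR had 0 reads in every control library and at most 2 in an shOFD1 library. What lay behind the higher CYP1B1 was not tested.

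PaTu 8988T did not show this difference. Its controls had 0.560, 0.288 and 0.248 FPKM and the shOFD1 libraries 0.374, 0.397 and 0.385 FPKM, so that the knockdown libraries lay inside the range of the controls. The exact permutation test gave p = 1.0, and the fit without the filter gave a log2 fold change of 0.12 (SE 0.258, limma adjusted p = 0.803, background 8.04% called higher). The effect in MIA PaCa-2 exceeded that in PaTu 8988T by 1.65 on the log2 scale (SE 0.321, limma interaction without the filter, adjusted p = 0.00289). The share of all genes called in that fit was not counted. With the filter, 19.2% of 9647 genes had a higher change in MIA PaCa-2 and 26.5% a lower one. Between the lines, PANC-1 controls had 224-fold more CYP1B1 than MIA PaCa-2 controls and 246-fold more than PaTu 8988T controls, while the controls of MIA PaCa-2 and PaTu 8988T overlapped. Among shOFD1 libraries PANC-1 was 157-fold above MIA PaCa-2 and 648-fold above PaTu 8988T.

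**Figure D2:**
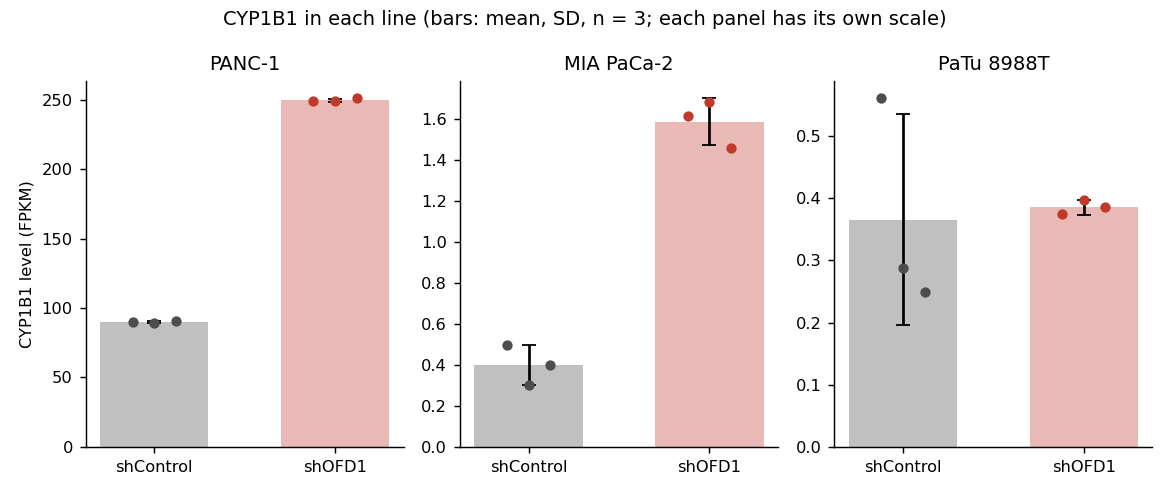
CYP1B1 level in FPKM in each line, with each panel on its own linear scale from 0; points are libraries, bars the mean and whiskers the SD (n = 3). The shOFD1 libraries sit clear of the controls in PANC-1 (249 to 251 against 89.1 to 91.0 FPKM) and MIA PaCa-2 (1.46 to 1.68 against 0.303 to 0.499 FPKM) and within the control range in PaTu 8988T.

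CYP1A1, the enzyme most strongly tied to ligand-bound AHR in many tissues, stayed at the edge of detection everywhere, with 9 to 40 reads per library. The PANC-1 controls had 0.384, 0.239 and 0.279 FPKM and the shOFD1 libraries 0.248, 0.141 and 0.302 FPKM. The MIA PaCa-2 controls had 0.304, 0.135 and 0.118 FPKM and the shOFD1 libraries 0.208, 0.0910 and 0.190 FPKM, and in PaTu 8988T these were 0.281, 0.349 and 0.332 FPKM against 0.333, 0.299 and 0.423 FPKM. The groups overlapped in all 3 lines, and the exact permutation tests gave p = 0.8 in MIA PaCa-2 and p = 0.5 in PaTu 8988T. A difference was not detectable at this depth. Control levels of CYP1A1 overlapped between every pair of lines.

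TIPARP, the ADP-ribosyltransferase that curbs AHR signalling, was the target whose groups separated upward in every line. With each line taken alone, so did 41.7% of genes tested in PANC-1, 28% in MIA PaCa-2 and 27.9% in PaTu 8988T. The share of genes that did so in all 3 lines was not counted. In PANC-1 the controls had 5.54, 5.21 and 4.59 FPKM and the shOFD1 libraries 9.27, 9.36 and 10.8 FPKM (log2 fold change 0.93). In MIA PaCa-2 the controls had 6.06, 3.88 and 6.24 FPKM and the shOFD1 libraries 9.01, 8.90 and 8.93 FPKM. All knockdown libraries lay above the controls, of which replicate 2 was low, and TIPARP rose 1.66-fold on the mean (5.39 ± 1.31 to 8.94 ± 0.058 FPKM, SD, n = 3, log2 fold change 0.75, SE 0.187, limma adjusted p = 0.0192). Without control replicate 2 the log2 fold change was 0.53 (adjusted p = 1.02e-05), and without shOFD1 replicates 1, 2 or 3 the adjusted p was 0.0705, 0.069 and 0.0705, above 0.05. In PaTu 8988T the controls had 10.4, 10.4 and 10.1 FPKM and the shOFD1 libraries 12.7, 11.0 and 12.8 FPKM, which did not overlap (nor did 27.9% of genes, upward; log2 fold change 0.23, SE 0.0635, limma adjusted p = 0.0174). This small rise was no longer called without the filter (adjusted p = 0.0508), without control replicate 3 (0.0569) or without shOFD1 replicate 3 (0.0716). The difference of 0.52 between the effects in MIA PaCa-2 and PaTu 8988T did not pass (SE 0.208, limma interaction adjusted p = 0.0618, from 0.00568 to 0.138 over the alternatives). PaTu 8988T controls held 1.91-fold more TIPARP than MIA PaCa-2 controls, and the controls of MIA PaCa-2 and PANC-1 overlapped.

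AHRR, the repressor, had measurable values only in PANC-1. The controls had 3.37, 3.49 and 2.94 FPKM and the shOFD1 libraries 2.80, 2.42 and 2.78 FPKM. The knockdown libraries were all lower (log2 fold change -0.28), as they were for 33.4% of the genes tested in PANC-1. This was opposite in direction to AHR, CYP1B1 and TIPARP in the same cells. In MIA PaCa-2 and PaTu 8988T AHRR was listed at 0 in all 12 libraries, and so was PDCD6-AHRR, a RefSeq gene at chr5:271646-438285 that spans all of AHRR, in every line. Whether reads over AHRR were left uncounted in these 2 lines was not tested, and no comparison was made there.

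ALDH3A1, an aldehyde dehydrogenase induced by dioxins in liver cells, was close to absent. It had 11 to 28 reads in the MIA PaCa-2 libraries (0.116, 0.177 and 0.0773 FPKM in controls, 0.0713, 0.119 and 0.112 FPKM with knockdown), which overlapped (exact permutation p = 0.5). The PANC-1 controls had 8, 4 and 0 reads and each PANC-1 shOFD1 library 1 read. In PaTu 8988T no library had more than 2 reads.

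Counted together, 5 of the 7 genes passed the filter of 1 FPKM in PANC-1, 2 in MIA PaCa-2 (ARNT and TIPARP) and 3 in PaTu 8988T (AHR, ARNT and TIPARP). In MIA PaCa-2 both were called higher, where 18.7% of 10758 genes were, and neither by 2-fold (4.07% of genes). In PaTu 8988T 1 of 3, TIPARP, was called higher, against 20.9% of 10698 genes, and none by 2-fold (0.159%). In PANC-1, where the choice was made, 4 genes lay wholly above and 1 wholly below the controls, as did 41.7% and 33.4% of the genes tested, and nothing is read from that count.

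**Figure D3:**
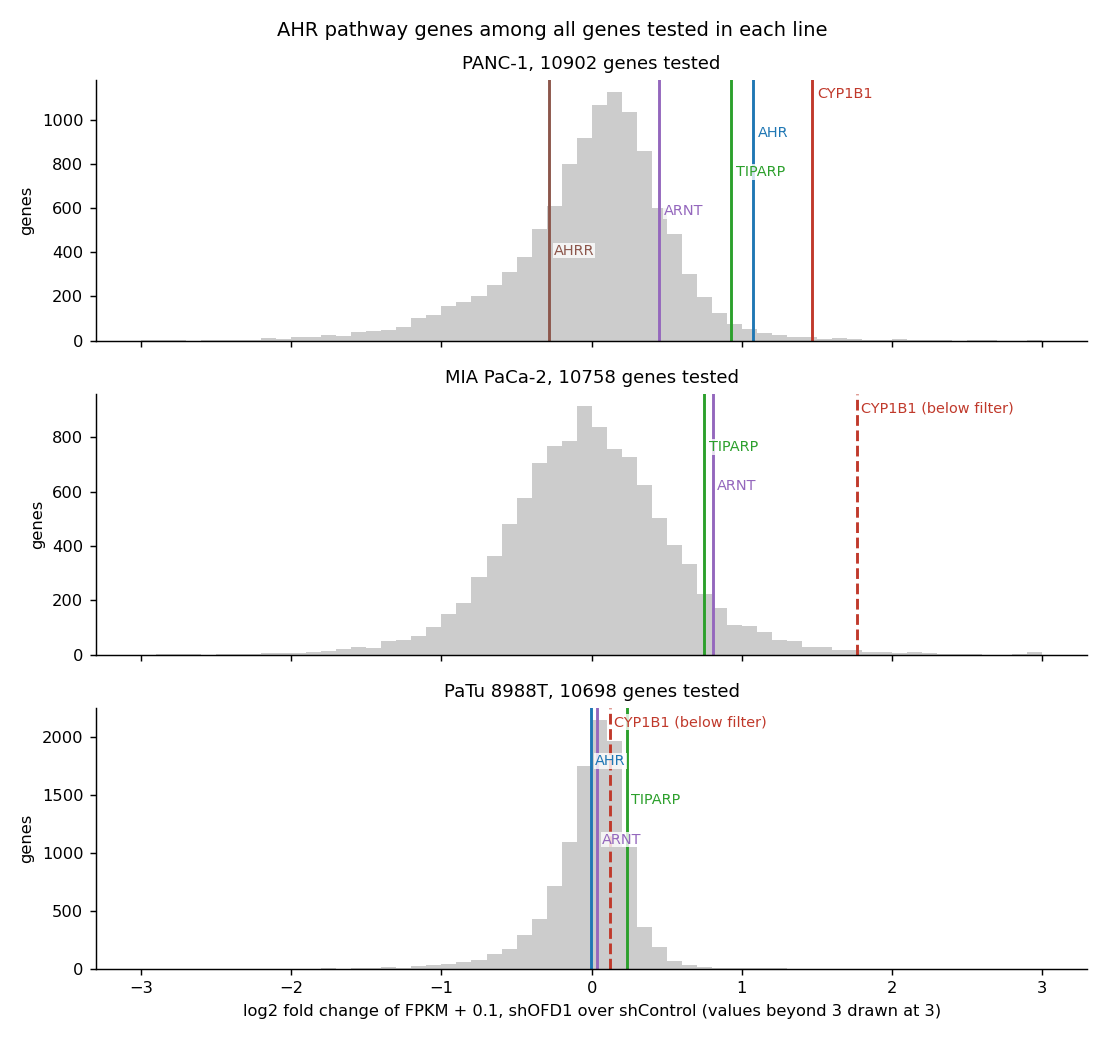
Log2 fold change of FPKM + 0.1 (x axis) of all genes tested in each line, as a histogram of gene numbers (y axis), with vertical lines at the AHR pathway genes; dashed lines are CYP1B1 where its mean is under 1 FPKM. CYP1B1 lies at 1.47 in PANC-1 and 1.77 in MIA PaCa-2, far to the right of most genes, and at 0.12 in PaTu 8988T, amid them.

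The proteins that hold AHR in the cytoplasm were abundant in all lines, and most fell in MIA PaCa-2. Of 5 listed genes, the chaperones HSP90AB1 (log2 fold change -0.33, adjusted p = 0.00179) and HSP90AA1 (-0.80, adjusted p = 0.00202) and the co-chaperone PTGES3 (-0.54, adjusted p = 0.0245) fell, where 21.7% of genes did, while CUL4B, a ubiquitin ligase scaffold linked to AHR, rose (0.90, adjusted p = 0.0123, all in limma), as did 18.7% of genes. The count of 4 called became 5 without control replicate 2, 2 without shOFD1 replicate 2 and 3 without any of the other libraries. The median of the list was -0.33, beside -0.03 over all genes tested. In PaTu 8988T 1 of 5 passed, HSP90AA1, which rose by 0.16 (limma adjusted p = 0.0109), and the median was -0.00212. In PANC-1 the list median was -0.16 and the values ran from PTGES3 (105 against 70.1 FPKM) to CUL4B (39.6 against 48.1 FPKM).

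Other genes known to be induced through AHR went both ways. Of 20 listed, 9 could be tested in MIA PaCa-2, where 1 rose, the cell cycle inhibitor CDKN1B (22.3 ± 2.1 to 33.0 ± 1.7 FPKM, limma adjusted p = 0.00482), and 1 fell, the quinone reductase NQO1 (168 ± 18 to 109 ± 1.1 FPKM, limma adjusted p = 0.00269), against 18.7% and 21.7% of all genes. The count of 2 called became 7 without control replicate 2 and was 2 or 3 without any other library. In PaTu 8988T 6 could be tested and 3 rose, where 20.9% of all genes did. The amino acid transporter SLC7A5 had the smallest p (33.6 ± 0.41 to 62.9 ± 4.8 FPKM, log2 fold change 0.90, limma adjusted p = 4.01e-06). NQO1 fell there too (90.5 ± 0.94 to 75.8 ± 1.0 FPKM, limma adjusted p = 0.00034), as did the retinaldehyde dehydrogenase ALDH1A3 (limma adjusted p = 0.000757), with 18.5% of genes called lower. In PANC-1, NQO1 had 51.8 FPKM in controls and 31.4 with knockdown, so that this classical AHR and NRF2 target was lower in the shOFD1 libraries of all 3 lines. With each line taken alone, 33.4% of genes tested in PANC-1, 31.3% in MIA PaCa-2 and 24% in PaTu 8988T lay wholly below their controls. The share that did so in all 3 lines was not counted. PTGS2, the inducible cyclooxygenase, was the listed gene furthest up in PANC-1 (0.665 against 2.70 FPKM), and the exporter ABCG2 had 3.69 against 6.64 FPKM. PTGS2 passed the filter there only through its higher shOFD1 libraries and is part of the PANC-1 median. The medians of the tested genes were 0.14 for PANC-1, 0.09 for MIA PaCa-2 and 0.16 for PaTu 8988T, beside 0.06, -0.03 and 0.03 over all genes.

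Relatives of AHR and ARNT in the bHLH-PAS family included several that rose in MIA PaCa-2. Of 12 listed, 8 were tested, 5 rose and 1 fell, with 18.7% and 21.7% of all genes called in those directions. The 3 that passed 2-fold were the clock factor ARNTL2 (0.539 ± 0.053 to 1.62 ± 0.050 FPKM), the hypoxia factor EPAS1 (1.20 ± 0.067 to 2.53 ± 0.25 FPKM, limma adjusted p = 0.00142) and the neuronal factor NPAS1 (3.94 ± 1.8 to 7.76 ± 0.23 FPKM, limma adjusted p = 0.0244). ARNTL2 was under 1 FPKM in controls and entered the test only through its higher shOFD1 libraries, so its call is no support for a rise. The same held for SIM2, which was not called, and both are in the counts and median of this list. The count of 6 called rested on every library, since it was 2 without shOFD1 replicate 1, 2 or 3, 4 without control replicate 1 or 3 and 8 without control replicate 2. In PaTu 8988T none of the 7 tested rose and 2 fell, where 20.9% and 18.5% of genes did, EPAS1 (2.41 ± 0.15 to 1.63 ± 0.12 FPKM, limma adjusted p = 0.00188) and the clock factor ARNTL (limma adjusted p = 0.00796). Without PaTu 8988T shOFD1 replicate 2, 5 were called. In PANC-1 EPAS1 had 56.8 FPKM in controls and 97.8 with knockdown. The medians of the tested genes were 0.07 for PANC-1, 0.58 for MIA PaCa-2 and -0.03 for PaTu 8988T.

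Coactivators and cofactors of these factors numbered 8, all tested in every line. In MIA PaCa-2 the steroid receptor coactivator NCOA3 (log2 fold change 0.55, adjusted p = 0.0247) and the NF-kB subunit RELB (0.62, adjusted p = 0.0267) rose and the acetyltransferase CREBBP fell (-0.57, adjusted p = 0.00261), beside 18.7% of genes higher and 21.7% lower. The 3 calls became 6 without control replicate 2, 2 without control replicate 1 or 3 and 1 without any shOFD1 library. In PaTu 8988T RELB (0.24, adjusted p = 0.0248) and NCOA3 (0.17, adjusted p = 0.0358, all in limma) rose, beside 20.9% of genes. The count was again 2 without shOFD1 replicate 2, but 0 without control replicate 1 and 1 without any other library. NCOA3 had 22.5 against 40.3 FPKM in PANC-1.

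Enzymes of tryptophan breakdown, which yields kynurenine and other AHR ligands, changed in MIA PaCa-2 but in few genes. Of 12 listed, 4 were tested and 2 rose, the kynurenine aminotransferase KYAT3 (13.1 ± 1.7 to 25.6 ± 1.2 FPKM, limma adjusted p = 0.00127) and QPRT, which makes nicotinate mononucleotide (8.31 ± 2.7 to 13.0 ± 0.31 FPKM, limma adjusted p = 0.0382), where 18.7% of all genes rose. The count was 4 without control replicate 2 and 1 without any other library. In PaTu 8988T none of 4 was called by limma, and 1 was without shOFD1 replicate 2. IDO1 and IDO2, the inducible first enzymes of the route, were at 0 in all libraries of both lines and at most 0.108 FPKM as a group mean in PANC-1. TDO2, the liver enzyme of the same step, had 0.766 against 0.30 FPKM in PANC-1, and the kynurenine hydroxylase KMO had 0.686 against 1.61 FPKM. KMO passed the filter there only through its higher shOFD1 libraries.

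**Figure D4:**
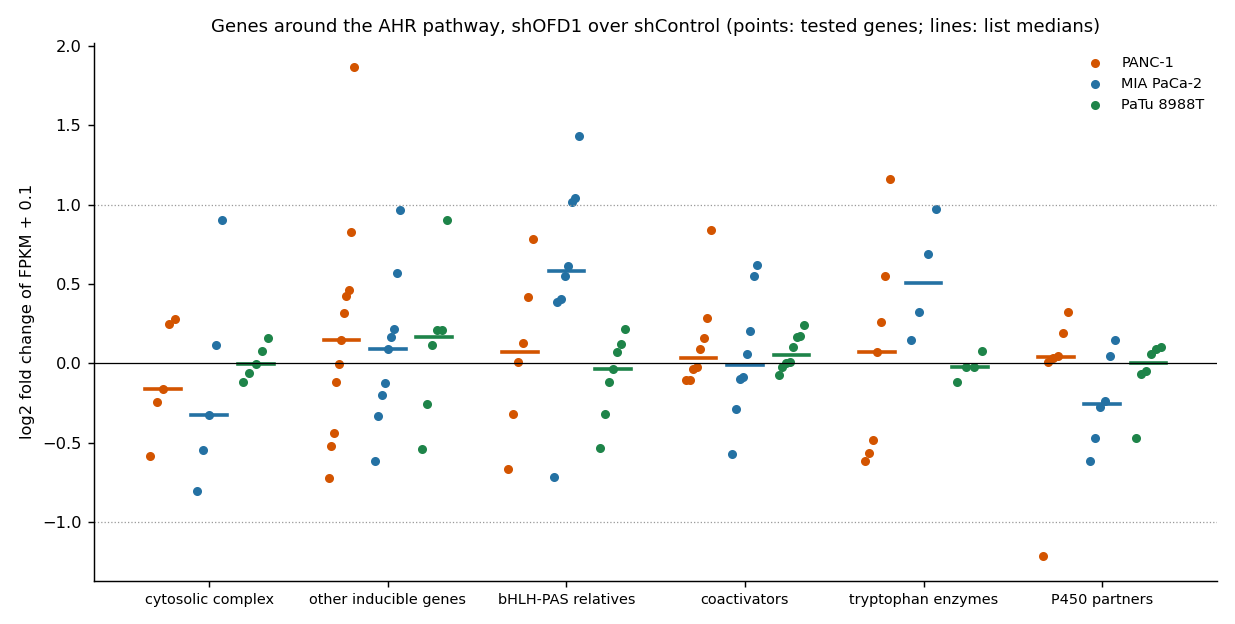
Log2 fold change of FPKM + 0.1 (y axis) of the tested genes in 6 lists around the AHR pathway (x axis), by line, with list medians as short lines and dotted lines at a 2-fold change. The bHLH-PAS relatives have a median of 0.58 in MIA PaCa-2 against 0.07 in PANC-1 and -0.03 in PaTu 8988T. In MIA PaCa-2, ARNTL2 and SIM2 passed the filter only through their higher shOFD1 libraries, and so did PTGS2 and KMO in PANC-1.

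The genes whose pattern was most like that of CYP1B1 were looked for in PANC-1 alone, since it passed the filter there only, over 6 libraries. Among 10901 genes, 745 had a Pearson r of at least 0.99 with CYP1B1 and the 5 highest were LIN28B, CP, PTP4A1, BCL6 and PCGF3. LIN28B, an RNA-binding protein that blocks let-7 maturation, had a log2 fold change of 1.30 in PANC-1 and CP, the copper-carrying ceruloplasmin, had 1.06. These correlations share the same libraries and describe them only.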

How the data were processed

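The authors aligned reads to the human genome with HISAT2, counted them per gene with HTSeq and deposited FPKM, a level scaled to gene length and depth, for 26668 genes in 18 libraries. The labels' protocols and the study's methods name different RNA and library kits; annotation and strand setting are not given in the sources used here, and the submitters' processing notes list hg 38 beside mouse builds (GRCm 38, mm 10). The 7 genes and the lists were chosen with earlier results of these data known.

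Each line was fitted apart with limma 3.58.1 (R 4.3.3) on log2(FPKM + 0.1) with a variance trend, over genes with a mean of at least 1 FPKM, and Benjamini-Hochberg adjustment (threshold 0.05, and with 2-fold). The pseudocount understates changes of low genes. The interaction of MIA PaCa-2 and PaTu 8988T was fitted the same way. The study's own test ran on counts; since the deposited values are FPKM, limma was used here. Whole reads were recovered from the steps of FPKM values for 99.99 to 100% of genes above 0 (tolerance 0.0005 reads), and showed gene lengths, of which 98.3% were equal in MIA PaCa-2 and PaTu 8988T but 54.8% in PANC-1 and PaTu 8988T, so levels were compared between lines only for genes of equal length. On simulated data 195 of 195 planted genes in PANC-1, 195 of 195 in MIA PaCa-2 and 194 of 194 in PaTu 8988T were called. Of 10882, 10729 and 10662 genes tested there, 10, 9 and 13 unchanged ones passed adjusted p alone. In the difference of MIA PaCa-2 and PaTu 8988T, 18 unchanged ones did. Whole reads were recovered exactly in these data for 98.0, 97.6 and 97.7% of genes. The planted changes were larger than 2-fold, the spread between replicates was set alike for all genes and no simulated library stood apart. Recovery of changes as small as those of ARNT and TIPARP, or with controls as uneven as those of MIA PaCa-2, was not tested. Floors and read numbers cover counting error only.

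Named list genes were those called with 2-fold, otherwise the 2 with the smallest p; others named were chosen after their values were seen, and some list genes are not reported here. Alternatives were other pseudocounts, filters and scaling, no trend, a replicate block, voom on recovered reads and each library left out.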

Additional observations from a re-analysis of the deposited data

Results flagged for a closer look

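The effect of knockdown on ARNT differed between MIA PaCa-2 and PaTu 8988T by 0.77 on the log2 scale in the limma interaction test, higher in MIA PaCa-2, where the shOFD1 libraries were all above the controls, while those of PaTu 8988T overlapped their controls. The effect on CYP1B1 differed by 1.65 in the same direction in the fit without a filter on low values, with 48 to 108 reads per control library in PaTu 8988T and 63 to 102 in MIA PaCa-2. In the fit with the filter, 19.2% of genes were called higher in MIA PaCa-2 and 26.5% lower. These shares were not counted in the fit without it. The difference between PANC-1 and these lines was not tested.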

How the results depend on the processing

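ARNT in MIA PaCa-2 and its difference from PaTu 8988T passed under every alternative run (adjusted p from 6.66e-07 to 0.0111, and from 1.36e-07 to 0.0019). CYP1B1 in MIA PaCa-2 had a log2 fold change of 0.89 with a pseudocount of 1, 1.98 with 0.01 and 2.0 with voom on recovered reads of genes with at least 10 reads, which follows from the size of the pseudocount beside its level. Its limma adjusted p was 0.00299 without the filter and 0.000524 with that voom fit. The fits without a control library let it pass the filter only through the shOFD1 libraries, and those without an shOFD1 library left it under the filter. TIPARP kept its direction but had 0.23 in PaTu 8988T without the filter (adjusted p = 0.0508); over the libraries left out in turn it ran from 0.53 to 0.87 in MIA PaCa-2, 0.19 to 0.30 in PaTu 8988T and 0.30 to 0.64 for their difference, which passed without each MIA PaCa-2 control. AHR in PaTu 8988T, not called, had -0.01 with all libraries and -0.0923 without shOFD1 replicate 1, and changed sign to 0.0167 without control replicate 2, 0.000514 without control replicate 3, 0.0565 without shOFD1 replicate 2 and 0.0148 without shOFD1 replicate 3. Scaling by the median of ratios gave 1.41 for CYP1B1 and 0.39 for ARNT in PANC-1; it moved the median of all genes by less than 0.1 in each line.

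Genes called in MIA PaCa-2 numbered 4350 and ranged from 2423 to 8098 with 1 library left out, the highest without control replicate 2. Genes called with 2-fold numbered 719, 834 and 107 in PANC-1, MIA PaCa-2 and PaTu 8988T, against 442, 484 and 34 with a pseudocount of 1, 416, 448 and 30 with a filter of 5 FPKM, and 1458, 1723 and 500 with voom on genes of at least 10 reads; PaTu 8988T had 237 without the filter. The causes were not tested, beyond the change in genes tested. Of all 639 values under alternatives, 569 were judged the same. For fold changes this meant the same direction and call, or a value within the spread between replicates. For counts of called genes it meant a count near the main one, and 237 of the 270 counts in the lists met it.

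Replicate numbers did not pair the libraries, since deviations of same-numbered libraries correlated at -0.11 to 0.13. With the replicate block, ARNT in MIA PaCa-2 had an adjusted p of 0.00831 (log2 fold change 0.81), TIPARP there 0.0273 and the ARNT difference 0.0019, and no call of these genes was lost. Depth limits CYP1A1 and ALDH3A1, at 40 reads or fewer per library.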

Other observations

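Partners of P450 enzymes and enzymes that act on the same substrates were mostly not called. Of 7 listed, 6 were tested in each line. The 1 call in MIA PaCa-2 became 3 without control replicate 2 and 0 without shOFD1 replicate 2 or 3, and the 0 in PaTu 8988T became 1 without shOFD1 replicate 1. The electron donor POR had 31.9 FPKM in PANC-1 controls and 32.7 with knockdown; it had 41.8 against 33.7 FPKM in MIA PaCa-2. The epoxide hydrolase EPHX1 fell in MIA PaCa-2 (22.8 ± 4.3 to 14.7 ± 0.80 FPKM, n = 3, limma adjusted p = 0.0139), where 21.7% of genes did, and HSD17B1, which makes estradiol from estrone, had 2.20 FPKM in PANC-1 controls and 0.889 with knockdown.

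Transcripts next to CYP1B1 were scarce. CYP1B1-AS1 had 0 to 4 reads in any library of MIA PaCa-2 or PaTu 8988T and 0 in PANC-1, and RMDN2, which ends next to CYP1B1, had 0.491 FPKM in PANC-1 controls and 0.625 with knockdown, far below CYP1B1 in these libraries.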
